A study of Mus musculus with 50 samples.

Results

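The IL-1 family and inflammasome genes examined here were Il1a, Il1b, Il1rn, Il18, Nlrp3, Casp1, Casp4, Pycard, Gsdmd and Aim2, 10 genes of the 53700 counted in each mouse, found by their symbols in the count files. All 10 passed the filter on low counts, which required at least 1 CPM (counts scaled to a common library total) in at least 3 of the 50 mice and left 16696 genes. The counts came from hippocampal microglia of male C57BL/6J mice, sorted as CD45int CD11b+ cells, with 1 library per mouse. Early-life stress (ELS) was given as limited bedding and nesting material from P2 to P9, and control (CTR) mice had standard housing. The groups of pups killed at P9, without injection, were P9-CTR (n = 12) and P9-ELS (n = 13). Adult mice at P200 received PBS or 1 mg/kg of LPS, a bacterial cell wall component, and were killed 3 hours later. Of the CTR adults 7 received PBS (P200-CTR-PBS) and 7 LPS (P200-CTR-LPS), and of the ELS adults 6 received PBS (P200-ELS-PBS) and 5 LPS (P200-ELS-LPS). Mice are named as in the labels, where the number before the point was taken to be the nest. Myelin was removed with Percoll only from adult brains, only adults were injected, and pups and adults were separate cohorts. These differences and age cannot be told apart. Numbers recur between ages (15 and 17, the latter CTR at P9 and ELS at P200), so a nest was a number within 1 age. Within an age, mice of 1 nest shared 1 early-life condition, so nest and condition can be told apart only in part.

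IL-1α and IL-1β are cytokines that act on the same receptor and start inflammatory signalling in the receiving cell, and the IL-1 receptor antagonist encoded by Il1rn occupies that receptor without signalling. IL-1β and IL-18 are made as inactive precursors. An inflammasome is a protein complex in which a sensor, such as NLRP3 or the DNA sensor AIM2, gathers the adaptor ASC (encoded by Pycard) and caspase-1, which then cuts the precursors and the pore protein gasdermin D. Caspase-11, encoded by Casp4 in the mouse, binds LPS inside the cell and also cuts gasdermin D. Transcript counts measure the supply of these messages and not cutting or release.

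The total count per mouse lay between 5152838 and 42231258, and 3 libraries stood apart with fewer than 16000 detected genes, P9_19.2_ELS, P9_19.3_ELS and P200_1.1_CTR_PBS. The 8 microglial marker genes summed to between 63540 and 81090 CPM at P200 and to between 35710 and 63220 CPM at P9. The neutrophil genes Ly6g and Retnlg had a count of 0 in all 50 mice, and the 9 neutrophil markers summed to at most 9.99 CPM at P200 and at most 30.9 CPM at P9. The P9 maximum, in P9_19.2_ELS, was Cxcr2 alone (30.9 CPM), and S100a8 reached at most 2.46 CPM at P9 (P9_17.2_CTR). The P200 maximum lay in P200_17.3_ELS_LPS, with Ngp at 4.34 CPM and S100a8 at 2.58 CPM. Mmp8 reached 2.46 CPM in P200_20.1_ELS_LPS. The highest sum was 1.85 CPM in P200-CTR-LPS, 1.29 CPM in P200-ELS-PBS and 0.273 CPM in P200-CTR-PBS. The part of these traces in the LPS differences was not tested. The 6 monocyte markers summed to at most 11.0 CPM at P200, with Ly6c2 at most 0.465 CPM, Chil3 at most 0.885 CPM and Ccr2, which made up most of the sum, at most 10.7 CPM. The 6 markers of T, B and NK cells summed to at most 1.73 CPM at P200. In such bulk libraries, fewer cells of a type and less RNA per cell cannot be told apart.

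The effect of LPS was examined first, in CTR and in ELS adults separately. The transcripts of both IL-1 cytokines, of the receptor antagonist and of Casp4 were higher in every LPS mouse than in every PBS mouse, in both conditions. Nlrp3 also rose in both conditions, but with overlapping groups and not with the nest as a replicate block. Aim2 passed the test in ELS and not in CTR, and the difference between these values did not pass the interaction test. Il18, Casp1, Pycard and Gsdmd passed the test in neither condition. In all, 5 of the 10 genes rose and 0 fell in CTR, where 8.73% of the 16696 genes rose and 6.2% fell (edgeR's quasi-likelihood test, adjusted p under 0.05). In ELS 6 rose and 0 fell, beside 7.4% and 4.94% of all genes. The median log2 fold change of the 10 genes was 0.65 in CTR and 0.81 in ELS, beside 0.0 and -0.04 over all genes. The 4 genes whose LPS and PBS groups did not overlap can be read beside 4.92% of all genes that were higher without overlap in CTR and 5.65% in ELS.

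**Figure D1:**
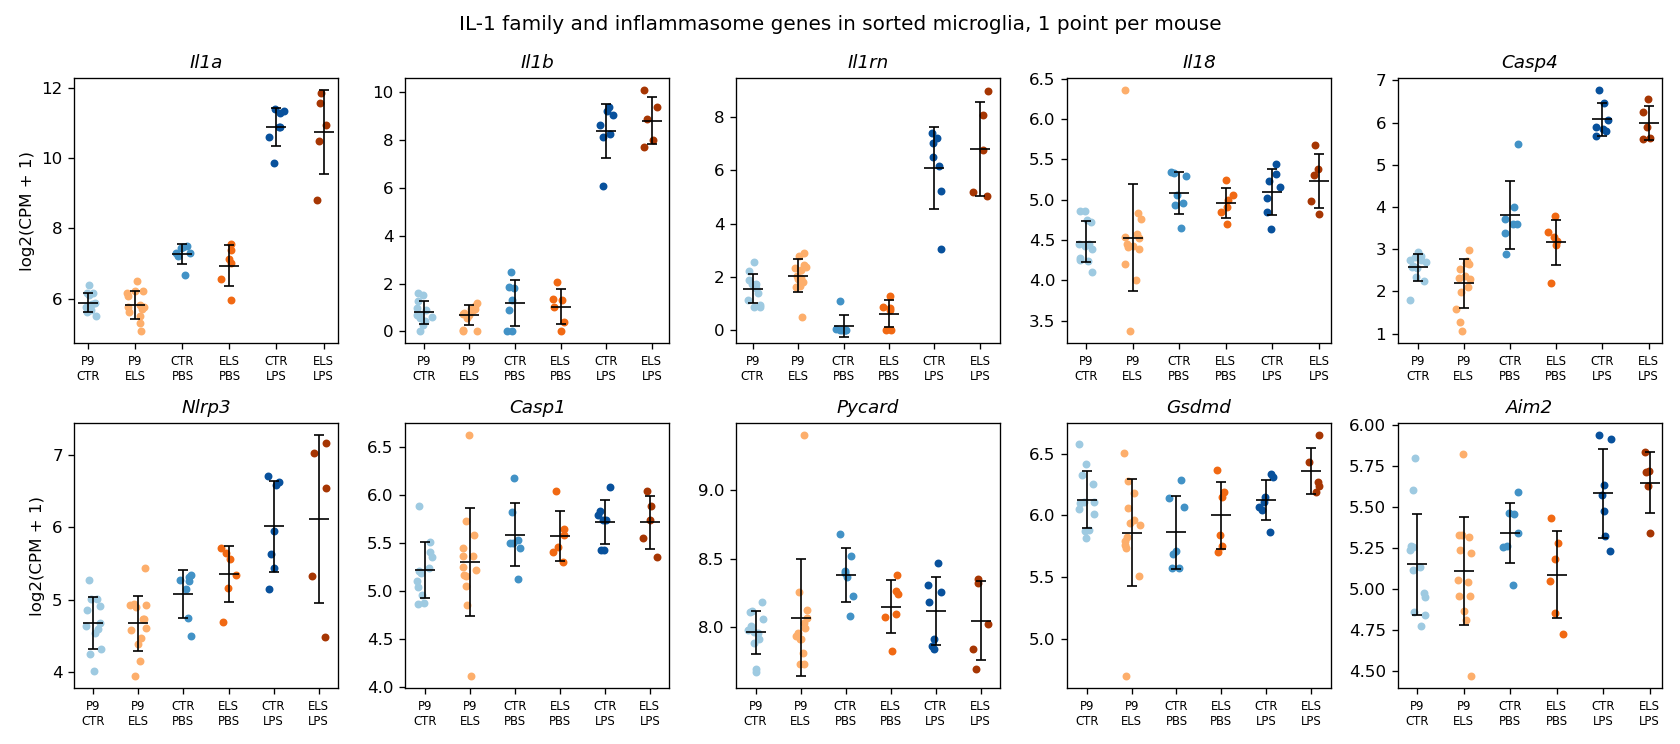
Levels of the 10 genes as log2(CPM + 1) on the vertical axis (own scale for each gene) in the 6 groups, with 1 point per mouse and mean ± SD as black bars. The LPS mice of Il1a, Il1b, Il1rn and Casp4 all lie above the PBS mice, while those of Il18, Casp1, Pycard and Gsdmd overlap with them.

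Promoter sequences were read from a RefSeq table on GRCm38.p6, which held 13 promoters of 9 of the 10 genes and none for Gsdmd. The 150 bases before the start are shown for the 4 genes whose LPS and PBS mice did not overlap, since they are the regions next to the largest changes. Capitals mark matches, on either strand, to the TATA motif TATAAA, to the AP-1 motif, which was searched as TGANTCA, and to the kappaB motif.
Il1a, chr2:129309973-129310122, minus strand: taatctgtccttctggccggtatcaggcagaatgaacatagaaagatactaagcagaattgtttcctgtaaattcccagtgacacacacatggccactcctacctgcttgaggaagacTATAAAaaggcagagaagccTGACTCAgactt
Il1b, chr2:129371140-129371289, minus strand: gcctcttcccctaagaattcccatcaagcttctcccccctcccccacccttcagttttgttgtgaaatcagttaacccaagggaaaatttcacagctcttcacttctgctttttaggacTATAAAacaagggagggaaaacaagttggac
Il1rn, first of 3 promoters, chr2:24336710-24336859, plus strand: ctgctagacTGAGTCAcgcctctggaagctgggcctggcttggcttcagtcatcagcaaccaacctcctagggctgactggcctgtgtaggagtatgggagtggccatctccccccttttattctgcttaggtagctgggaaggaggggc
Casp4, first of 2 promoters, chr9:5308699-5308848, plus strand: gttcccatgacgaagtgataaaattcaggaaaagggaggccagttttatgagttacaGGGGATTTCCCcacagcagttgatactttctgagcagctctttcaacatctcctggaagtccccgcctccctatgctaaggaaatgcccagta

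TATAAA began at base -32 from the start in Il1a and at base -31 in Il1b. It was also matched on the opposite strand in the third Il1rn promoter (bases 14 to 19) and in Il18 (bases -175 to -170). Promoters of 4 of the 9 genes thus held a match. Of all 32851 promoters of the table (250 bases before to 50 after the start) 13.6% did, a share per promoter and not per gene. TGANTCA stood at base -12 in Il1a, at base -141 in only the first of 3 Il1rn promoters, and in 7.81% of all promoters. Which start was used in these cells was not determined. The kappaB motif was matched in Casp4, as 2 overlapping matches that begin at bases -93 and -92, and in 1 of 2 Nlrp3 promoters, at base -186, and in 4.51% of all promoters. The motifs TTCNNNGAA (8.3% of all promoters) and GAAANNGAA (8.56%) had no match in the 13 promoters. A match describes the letters of these windows and not the binding of a factor.

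Il1a (chromosome 2, 129140291 to 129152098, minus strand, GRCm39) was already well expressed without LPS. Its level in P200-CTR-PBS ran from 102.0 to 180.8 CPM with a median of 157.9 CPM, and in P200-CTR-LPS from 937 to 2684 CPM with a median of 1896 CPM. In ELS the PBS mice ran from 61.7 to 187 CPM with a median of 134 CPM, and the 5 LPS mice had 449, 1448, 1953, 3016 and 3701 CPM. The lowest LPS mouse of either condition was thus above the highest PBS mouse. On the log2 scale the change was 3.69 (SE 0.28) in CTR, with an adjusted p of 4.39e-15, and 4.03 (SE 0.31) in ELS, with an adjusted p of 1.04e-14 (edgeR, n = 7 against 7 and 5 against 6). Of its exon bases, 477 (13.7%) are shared with Gm14023, a long non-coding RNA on the opposite strand. Gm14023 had 42.1 ± 5.16 CPM in P200-CTR-PBS (SD, n = 7) and 480 ± 136 CPM in P200-CTR-LPS. The strand setting of the counting is not given in the sources used here, so reads from the shared bases cannot be assigned to either gene.

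Il1b (chromosome 2, 129206490 to 129213059, minus strand) went from nearly no counts to a high level. In P200-CTR-PBS it ran from 0.0 to 4.61 CPM with a median of 1.51 CPM, and 2 of 7 mice had a count of 0, which allows up to 0.213 CPM at their depth. After LPS the CTR mice ran from 66.4 to 668 CPM with a median of 392 CPM. In ELS the PBS mice ran from 0.0 to 3.18 CPM with a median of 1.27 CPM, and the 5 LPS mice had 206, 253, 474, 659 and 1081 CPM. Every LPS mouse was far above every PBS mouse. Its log2 fold change was 7.8 (SE 0.71) in CTR, with an edgeR adjusted p of 1.05e-12, and 8.7 (SE 0.8) in ELS, with an adjusted p of 2.38e-12. The antisense gene Il1bos shares 95 of its exon bases and reached only 3.66 ± 1.71 CPM in P200-CTR-LPS (SD, n = 7).

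Il1rn (chromosome 2, 24226865 to 24241506, plus strand), the brake on IL-1 signalling, was close to absent from resting adult microglia. In P200-CTR-PBS, 5 of 7 mice had a count of 0, which allows up to 0.214 CPM, 1 mouse had a single count and P200_5.2_CTR_PBS had 29 counts (1.13 CPM). After LPS the CTR mice ran from 7.22 to 169.6 CPM with a median of 90.1 CPM. In ELS the PBS mice ran from 0.0 to 1.44 CPM with a median of 0.718 CPM, and the 5 LPS mice had 31.4, 35.0, 108.5, 269 and 508 CPM. The groups did not overlap in either condition. With LPS the log2 fold change was 8.88 (SE 0.87) in CTR, with an edgeR adjusted p of 1.2e-11, and 8.26 (SE 0.88) in ELS, with an adjusted p of 2.16e-10. The size of the CTR value rests on the few counts in PBS, and it was 12.71 without P200_5.2_CTR_PBS. The ELS value was 7.48 without P200_20.1_ELS_LPS.

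Casp4 (chromosome 9, 5308828 to 5336783, plus strand), the intracellular LPS receptor, was the 1 caspase of the set that passed the test. In P200-CTR-PBS it ran from 6.41 to 43.8 CPM with a median of 11 CPM. The highest value belonged to P200_1.1_CTR_PBS, the library with few detected genes, and the other 6 mice had at most 15.0 CPM. After LPS the CTR mice ran from 50.1 to 107.6 CPM with a median of 58.5 CPM. The ELS mice ran from 3.62 to 12.8 CPM in PBS with a median of 8.47 CPM, and the 5 LPS mice had 48.3, 49.1, 58.4, 75.4 and 93.3 CPM. The groups did not overlap, even with that mouse included. Its log2 fold change was 2.14 (SE 0.32) in CTR, with an edgeR adjusted p of 9.99e-07, and 2.95 (SE 0.37) in ELS, with an adjusted p of 1.68e-08. Without that mouse the value in CTR was 2.66.

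Nlrp3 (chromosome 11, 59432394 to 59457782, plus strand), the sensor best known for IL-1β release, had 33.6 ± 7.01 CPM in P200-CTR-PBS and 68.9 ± 29.1 CPM in P200-CTR-LPS (SD, n = 7 each). In CTR 6 of 7 LPS mice were above every PBS mouse. In ELS it had 41.0 ± 10.1 CPM in PBS (n = 6), and the 5 LPS mice had 21.4, 39.3, 92.0, 129 and 142.5 CPM. P200_11.2_ELS_LPS lay below every PBS mouse and 3 LPS mice lay above every one. The log2 fold change was 1.04 (SE 0.27) in CTR, with an edgeR adjusted p of 0.00491, and 1.05 (SE 0.3) in ELS, with an adjusted p of 0.0148. With the nest as a replicate block neither call held (0.85 with an adjusted p of 0.145 in CTR, 0.81 with 0.187 in ELS). The call in ELS was also lost with limma voom (adjusted p 0.103) and without P200_2.2_ELS_LPS (0.85, adjusted p 0.0796) or P200_20.1_ELS_LPS (0.78, adjusted p 0.108).

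Aim2 (chromosome 1, 173178445 to 173293930, plus strand) had 39.8 ± 5.12 CPM in P200-CTR-PBS and 47.7 ± 9.21 CPM in P200-CTR-LPS, a log2 difference of 0.26 (SE 0.16, edgeR adjusted p 0.33). In ELS it had 33.5 ± 6.24 CPM in PBS (SD, n = 6) and 49.5 ± 6.13 CPM in LPS (n = 5). That difference of 0.56 (SE 0.18) had an edgeR adjusted p of 0.0338. The call was lost without any 1 of 6 mice (P200_2.2_ELS_LPS, P200_4.2_ELS_LPS, P200_17.3_ELS_LPS, P200_4.1_ELS_PBS, P200_11.1_ELS_PBS or P200_20.2_ELS_PBS), which gave log2 values from 0.5 to 0.55 with adjusted p from 0.0593 to 0.0906.

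The remaining components were expressed in every mouse at levels that LPS did not move past the test. Pycard (chromosome 7, 127588558 to 127593039, minus strand) had 335 ± 45.2 CPM in P200-CTR-PBS and 280.3 ± 48.7 CPM in P200-CTR-LPS, and 285 ± 37.1 and 267 ± 53.6 CPM in the ELS groups. Its log2 differences were -0.26 (SE 0.16) in CTR and -0.09 (SE 0.19) in ELS, and it shares 485 exon bases with Gm45205 on the opposite strand. Casp1 (chromosome 9, 5298508 to 5307290, plus strand), which lies just before Casp4, had 48.2 ± 11.9 and 52.3 ± 8.55 CPM in the CTR groups and 47.3 ± 9.42 and 52.3 ± 9.88 CPM in the ELS groups. Its log2 differences were 0.12 (SE 0.21) and 0.15 (SE 0.24). Gsdmd (chromosome 15, 75733974 to 75739257, plus strand) had 58.3 ± 12.4 and 69.2 ± 7.76 CPM in CTR and 64.0 ± 12.3 and 81.5 ± 11 CPM in ELS, with log2 differences of 0.25 (SE 0.16) and 0.35 (SE 0.18). Il18 (chromosome 9, 50466081 to 50493633, plus strand), the other cytokine cut by caspase-1, had 33.3 ± 5.91 and 33.7 ± 6.46 CPM in CTR and 30.4 ± 4.1 and 37.4 ± 8.89 CPM in ELS, with log2 differences of 0.02 (SE 0.24) and 0.3 (SE 0.27). The smallest edgeR adjusted p among these 8 values was 0.235. Of the cytokines that caspase-1 cuts, Il1b rose and Il18 did not pass the test.

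**Figure D2:**
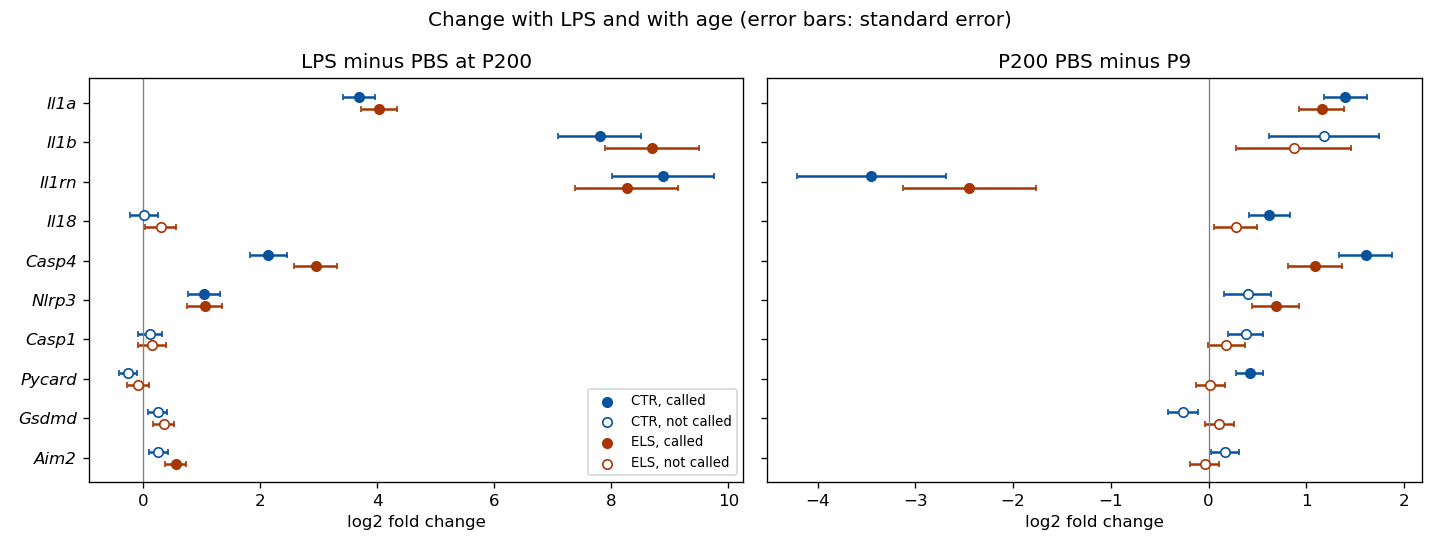
Log2 fold change with its standard error (bars) of each gene, for LPS minus PBS at P200 (left) and for P200 PBS minus P9 (right), in CTR (blue) and ELS (brown), with filled points for adjusted p under 0.05. Il1rn has the largest LPS value in CTR (8.88) and is the 1 gene called lower with age.

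Within the 10 nests that held both PBS and LPS adults, every LPS mouse was above every PBS mouse of its nest in 10 of 10 nests for Il1a, Il1b, Il1rn and Casp4. That count follows from the lack of overlap between their groups and adds nothing to it. For Nlrp3 every LPS mouse was higher in 7 nests, and in the other 3 every LPS mouse was lower. For Aim2 and for Gsdmd every LPS mouse was higher in 9 nests each, beside 6 for Casp1, 5 for Il18 and 2 for Pycard. The share of all genes with such counts was not determined. Of 10 genes that also respond to the handling of cells, 7 immediate-early genes (Fos, Jun, Junb, Egr1, Dusp1, Zfp36 and Ier2) had higher medians after LPS in both conditions, while Atf3 and the heat shock gene Hspa1b had lower medians in both and Hspa1a a higher one in CTR and a lower one in ELS. The 10 genes summed to between 563 and 848 CPM in PBS mice and to between 6277 and 12690 CPM in LPS mice. Their part in the LPS differences was not tested.

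The LPS mice differed widely from each other, and did so together for the 3 IL-1 messages. In P200-ELS-LPS the order from lowest to highest (P200_11.2_ELS_LPS, P200_4.2_ELS_LPS, P200_2.2_ELS_LPS, P200_17.3_ELS_LPS, P200_20.1_ELS_LPS) was the same for Il1a, Il1b, Il1rn and Casp4. In P200-CTR-LPS, P200_5.3_CTR_LPS was lowest and P200_8.2_CTR_LPS highest for Il1a, Il1b and Il1rn. The former had 937 CPM of Il1a, 66.4 CPM of Il1b and 7.22 CPM of Il1rn, whereas its Casp4 level of 66.3 CPM was the third highest of its group. Of these 4 genes, Il1rn had the widest ratio of highest to lowest mouse and Casp4 the narrowest, in both conditions. Pycard ran the other way in ELS, from 325 CPM in P200_11.2_ELS_LPS to 206 CPM in P200_20.1_ELS_LPS. These orders are descriptions of 7 and 5 mice.

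**Figure D3:**
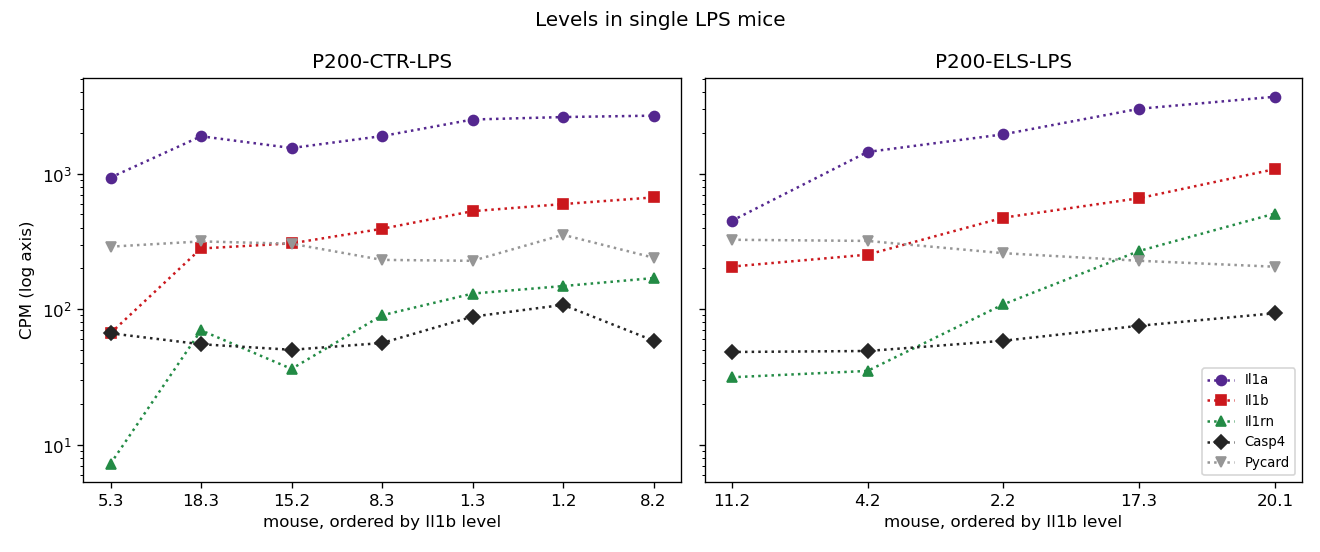
CPM (log axis) of 5 genes in each LPS mouse, CTR on the left and ELS on the right, with mice ordered by Il1b level. The lines of Il1a and Il1rn climb with Il1b in ELS, and in CTR they do so except for a drop from P200_18.3_CTR_LPS to P200_15.2_CTR_LPS (1890 to 1548 CPM of Il1a), P200_5.3_CTR_LPS is the lowest CTR mouse for all 3 (7.22 CPM of Il1rn), and Pycard stays between 206 and 354 CPM.

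Compared per kilobase of exon, the make-up of the set was different after LPS. Lengths were those of all annotated exons of a gene merged, such as 4235 bases for Pycard and 2601 for Il1b. They can exceed the transcript that was expressed, so orders, shares and ratios between genes hold for these lengths only. In P200-CTR-PBS the level per kilobase was highest for Pycard (79.1 ± 10.7 CPM per kb, SD, n = 7), followed by Il1a (44.9 ± 7.71 CPM per kb) and Gsdmd (19.4 ± 4.11 CPM per kb). Neighbours from Gsdmd downwards, namely Casp1, Il18, Nlrp3, Aim2, Casp4, Il1b and Il1rn, did not differ beyond their SD. For Casp4 (2.97 ± 2.42 CPM per kb) this SD includes P200_1.1_CTR_PBS, at 43.8 CPM beside at most 15.0 CPM in the others. In P200-ELS-PBS the neighbours Il18, Aim2, Casp4 and Il1b did differ beyond their SD. In P200-CTR-LPS the order began with Il1a (577 ± 184 CPM per kb), Il1b (156.0 ± 80.3 CPM per kb) and Pycard (66.2 ± 11.5 CPM per kb), and the last pair overlapped within their SD. Of the summed level per kilobase of the 10 genes, Il1a held 24.0% ± 4.31 in P200-CTR-PBS and 63.5% ± 1.93 in P200-CTR-LPS (SD, n = 7 each), and Pycard 42.0% ± 4.31 and 8.21% ± 3.73. The sum itself was 188 ± 9.97 and 905 ± 279 CPM per kb.

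The balance between agonist and antagonist messages can be read from ratios per kilobase, at the same merged exon lengths. The log2 ratio of Il1a to Il1b was 5.86 ± 0.94 in P200-CTR-PBS (n = 5 mice with more than 3 Il1b counts) and 2.09 ± 0.622 in P200-CTR-LPS (n = 7). In ELS it was 6.12 ± 0.757 (n = 5) and 1.51 ± 0.53 (n = 5). Il1a was thus above Il1b in every LPS mouse, by at least 0.7 on the log2 scale. The log2 ratio of Il1rn to Il1b after LPS was -3.44 ± 0.545 in CTR (n = 7) and -3.11 ± 0.803 in ELS (n = 5), so that the antagonist message was below that of its cytokine in each LPS mouse. In the few PBS adults with more than 3 counts of both it was -2.3 in CTR (n = 1) and -2.48 ± 0.588 in ELS (n = 3). The mice left out included P200_5.1_CTR_PBS with 116 Il1b counts and 1 Il1rn count, and P200_18.2_CTR_PBS with 75 and 0. They also included P200_17.2_ELS_PBS with 0 Il1b and 30 Il1rn counts. The change of this ratio with LPS can therefore not be read from these mice. At P9 the same ratio was 0.111 ± 1.52 in CTR (n = 11), with a median of -0.324 and a range from -2.37 to 3.171. In ELS it was 0.57 ± 1.22 (n = 10) with a median of 0.869. P9_53.3_ELS had -2.709, and the other ELS pups with a ratio ran from 0.19 to 1.495, with Il1rn above Il1b. The pups left out had at most 1 count of Il1b. Their Il1rn counts were 80 in P9_51.3_CTR, 33 in P9_19.3_ELS, 122 in P9_53.2_ELS and 73 in P9_55.1_ELS. Over all ELS pups the mean was 0.623 ± 0.293 CPM per kb for Il1rn and 0.253 ± 0.162 for Il1b. Over all CTR pups these means were 0.388 ± 0.224 and 0.322 ± 0.25 CPM per kb.

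**Figure D4:**
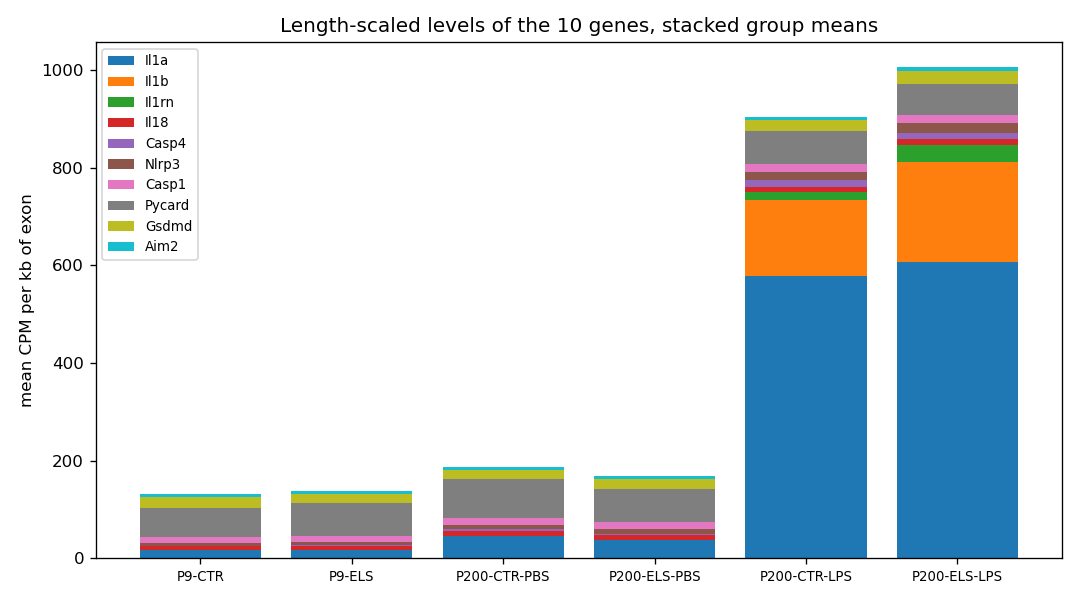
Stacked group means of the 10 genes in CPM per kilobase of merged exon length, 1 bar per group. Il1a and Il1b make up most of both LPS bars (577 and 156 CPM per kb in P200-CTR-LPS), and Pycard is the tallest part of the other 4.

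P9 and P200 were compared next, in CTR and in ELS, with the PBS mice as the adult groups. These adults were injected and the pups were not, so age and injection cannot be told apart. Adult microglia had more Il1a and Casp4 message and less Il1rn message than those of pups, in both conditions. In CTR 5 of the 10 genes were called, 4 higher and 1 lower, beside 44.1% of all genes (2911 with higher and 4445 with lower counts in adults). In ELS 4 were called, 3 higher and 1 lower, beside 42.2% of all genes (2863 and 4182). These shares of the set are near the background. The adult PBS groups also served as the reference for LPS, so the comparisons share mice. The median log2 fold change of the 10 genes was 0.41 in CTR and 0.23 in ELS, beside -0.09 and -0.01 over all genes.

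Il1a ran from 44.2 to 83.4 CPM in P9-CTR (mean 59.2 ± 11.5, SD, n = 12). The pups of P9-ELS ran from 32.6 to 90.0 CPM (mean 57.7 ± 16.1, n = 13). All 7 CTR adults lay above every CTR pup, and 5 of 6 ELS adults above every ELS pup. On the log2 scale the change was 1.4 (SE 0.22) in CTR, with an edgeR adjusted p of 7.77e-07, and 1.16 (SE 0.23) in ELS, with an adjusted p of 3.59e-05. Casp4 ran from 2.45 to 6.68 CPM in P9-CTR with a median of 5.26 CPM, and from 1.08 to 6.88 CPM in P9-ELS with a median of 4.0 CPM. Its log2 fold change was 1.61 (SE 0.27) in CTR, with an edgeR adjusted p of 3.22e-06, and 1.09 (SE 0.28) in ELS, with an adjusted p of 0.00147. Without P200_1.1_CTR_PBS the CTR value was 1.09 as well.

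Il1rn went down with age. It ran from 0.812 to 4.96 CPM in P9-CTR with a median of 2.12 CPM, and from 0.414 to 6.43 CPM in P9-ELS with a median of 3.07 CPM, and no pup had a count of 0. In CTR 6 of 7 adults were below every pup, and P200_5.2_CTR_PBS was the exception. In ELS only 2 of 6 adults were below every pup. Its log2 fold change was -3.45 (SE 0.76) in CTR, with an edgeR adjusted p of 0.000212, and -2.45 (SE 0.68) in ELS, with an adjusted p of 0.00279. It was -7.28 in CTR without that mouse, and in ELS the adjusted p rose to 0.0872 with limma voom and the nest as random effect. Markers of border-associated macrophages were lower in adults too, with 6 genes summing to between 470 and 918 CPM at P9 and to between 2.03 and 9.62 CPM in the PBS adults. Nearly all of it was Mrc1, whose median was 699.8 CPM in P9-CTR pups and 5.96 CPM in P200-CTR-PBS adults, while Cd163 had medians of at most 0.887 CPM at P9. The 4 neuronal markers summed to between 19.45 and 91.7 CPM at P9 and to between 2.49 and 11.7 CPM in the PBS adults. The 4 astrocyte markers summed to between 102.6 and 295.8 CPM at P9 and to between 300.6 and 503.2 CPM in the PBS adults through Slc1a3, while Gfap went from a median of 39.3 to 1.23 CPM and Aldoc from 50.0 to 3.07 CPM in CTR. Cxcr2, of the neutrophil list, went from a median of 14.0 to 0.0 CPM in CTR. The part of these cell markers in the age differences was not tested.

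Smaller age differences passed the test in 1 condition only, and for none of them did the ELS by age interaction pass. In CTR, Il18 rose by 0.62 (SE 0.21, edgeR adjusted p 0.0155) and Pycard by 0.42 (SE 0.14, adjusted p 0.0144). In ELS their values were 0.28 (SE 0.22, adjusted p 0.331) and 0.02 (SE 0.15, adjusted p 0.942). The pup P9_19.2_ELS had the highest level of both, 80.8 CPM of Il18 beside a group median of 20.9 CPM, and 676 CPM of Pycard beside a median of 247 CPM. Without this library the ELS value of Il18 was 0.57 with an adjusted p of 0.00193, and that of Pycard was 0.2. Nlrp3 rose by 0.69 in ELS (SE 0.24, edgeR adjusted p 0.0186) and had a value of 0.4 in CTR (SE 0.24, adjusted p 0.167). Without P200_4.1_ELS_PBS the ELS call was lost (0.61, adjusted p 0.0543).

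The other genes did not pass in either condition. Il1b had a median of 0.639 CPM in the CTR pups and of 0.725 CPM in the ELS pups, and its log2 values were 1.18 in CTR (SE 0.56, edgeR adjusted p 0.0796) and 0.87 in ELS (SE 0.59, adjusted p 0.246). In CTR it passed without P9_51.1_CTR, P9_52.1_CTR, P200_1.1_CTR_PBS or P200_8.1_CTR_PBS, with log2 values from 1.36 to 1.4. Casp1 had log2 values of 0.38 in CTR (SE 0.18, edgeR adjusted p 0.0884) and 0.18 in ELS, and passed in CTR without P9_58.2_CTR (0.47, adjusted p 0.0328). Gsdmd had values of -0.26 and 0.11, and Aim2 of 0.17 and -0.04, on the same scale.

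Early-life condition made no difference that passed the test in any of the 10 genes, at either age or with either treatment. At P9, where 0.0% of all genes were called, the log2 differences between ELS and CTR ran from -0.36 to 0.66 with a smallest edgeR adjusted p of 0.919. In PBS adults, with 0.168% of all genes called, they ran from -0.89 to 1.66 with a smallest adjusted p of 0.273, and in LPS adults, with 0.0% called, from -0.09 to 1.03 with a smallest adjusted p of 1.0. By unadjusted p under 0.05 the counts of these genes were 0, 1 and 0, and over all genes 914, 1622 and 798. The likelihood-ratio test of edgeR and DESeq2 also called 0 of the 10 genes in each of these comparisons.

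For Il1b the difference between ELS and CTR was -0.19 (SE 0.53) at P9, -0.51 (SE 0.63) in PBS and 0.4 (SE 0.56) in LPS mice. For Il1a it was -0.03 (SE 0.19), -0.27 (SE 0.26) and 0.07 (SE 0.28). For Il1rn it was 0.66 (SE 0.47), 1.66 (SE 0.88) and 1.03 (SE 0.62). The PBS value was 5.49 without P200_5.2_CTR_PBS, which left a single Il1rn count in the CTR PBS mice. No fit leaving out 1 mouse called it (smallest edgeR adjusted p 0.069). Casp4 in PBS was the 1 member with an unadjusted p under 0.05, at -0.89 (SE 0.33, p = 0.00965, edgeR adjusted p 0.273), and the value was -0.37 without P200_1.1_CTR_PBS. With these standard errors, differences of a log2 unit in Il1b and Il1rn were not detectable.

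The change of the LPS response with early-life condition was tested as an interaction. It was called for 0 of the 10 genes and for 0.0% of all genes, and 980 genes had an unadjusted p under 0.05, none of them a member. The values were 0.34 (SE 0.38) for Il1a, 0.9 (SE 0.85) for Il1b, -0.63 (SE 1.06) for Il1rn and 0.8 (SE 0.47) for Casp4, with a smallest edgeR adjusted p of 0.89. Without P200_5.2_CTR_PBS the Il1rn value was -4.46, against a single count in the CTR PBS mice. Over the fits leaving out 1 mouse its smallest edgeR adjusted p was 0.582. The interaction of condition with age was called for 0 of the 10 genes and for 0.0299% of all genes, with values of -0.24 (SE 0.33) for Il1a, -0.31 (SE 0.83) for Il1b, 1.0 (SE 0.99) for Il1rn and -0.52 (SE 0.41) for Casp4. Without P200_5.2_CTR_PBS the Il1rn value was 4.83, again against a single count, and over the fits leaving out 1 mouse its smallest edgeR adjusted p was 0.276. With all mice the smallest adjusted p of the interaction with age among the 10 genes was 0.506. Of these genes 0 had an unadjusted p under 0.05, beside 1712 of all genes.

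A further 55 genes of the IL-1 family and of inflammasomes were listed, of which 40 passed the filter. With LPS, 11 of the 40 rose and 1 fell in CTR, where 8.73% of all genes rose and 6.2% fell. In ELS 10 rose and 2 fell, beside 7.4% and 4.94%. The median log2 fold change of the list with LPS was 0.24 in CTR and 0.27 in ELS, beside 0.0 and -0.04 over all genes. With age, 14 rose and 7 fell in CTR, beside 44.1% of all genes called in either direction, and 13 rose and 7 fell in ELS, beside 42.2%, so these counts are near the background. The medians with age were 0.22 and 0.32, beside -0.09 and -0.01 over all genes. Between ELS and CTR, and in both interactions, 0 of the 40 were called by edgeR, while 1 to 3 had an unadjusted p under 0.05.

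On the receptor side, Il1r1, the signalling receptor of IL-1, was sparse, with 2.97 ± 4.05 CPM in P200-CTR-PBS (SD, n = 7) and 1.64 ± 1.25 CPM in P200-CTR-LPS. In ELS it summed to 210 counts over the PBS mice, 4 of 6 above 0, and to 4 counts over the LPS mice, a level per depth 28.2-fold lower (exact 95% interval for counting error 10.8 to 104). It was called lower there by edgeR (adjusted p 0.0105), but not with the nest as a replicate block (adjusted p 0.0623) or with limma voom (0.289). The decoy receptor Il1r2 stayed below the filter, with at most 0.59 CPM as a group mean. Il1rap, the accessory chain of the IL-1 receptor, had 21.9 ± 7.66 CPM in P200-CTR-PBS and 25.9 ± 5.0 CPM after LPS, which was not called. With age it rose by 0.56 in CTR (SE 0.22, edgeR adjusted p 0.0318), a call that was lost without P200_1.1_CTR_PBS, P200_5.1_CTR_PBS, P200_18.1_CTR_PBS, P200_18.2_CTR_PBS or P9_51.3_CTR, with log2 values from 0.46 to 0.53. Sigirr, which dampens IL-1 receptor signalling, had 13.9 ± 3.82 CPM in P9-CTR and 2.3 ± 3.18 CPM in P200-CTR-PBS. Its log2 fold change with age was -2.59 (SE 0.68, edgeR adjusted p 0.00158) in CTR and -4.07 (SE 0.79) in ELS. The CTR value was -3.57 without P200_1.1_CTR_PBS, the library with few detected genes.

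Il18rap, the accessory chain of the IL-18 receptor, fell with age and rose with LPS. It had 6.36 ± 2.45 CPM in P9-CTR, 0.318 ± 0.57 CPM in P200-CTR-PBS and 5.61 ± 1.73 CPM in P200-CTR-LPS. The log2 fold change with age was -4.45 (SE 0.77) in CTR and -3.29 (SE 0.74) in ELS, and with LPS it was 4.27 (SE 0.79) in CTR and 2.96 (SE 0.79) in ELS. Without P200_8.1_CTR_PBS the CTR values were -5.85 with age and 5.68 with LPS. The IL-18 binding protein Il18bp had group means between 2.23 and 5.24 CPM and was not called with LPS or age. Irak3, an inhibitory kinase of the pathway, rose with age by 2.06 (SE 0.4) in CTR and 2.05 (SE 0.41) in ELS.

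Among genes that act on inflammasomes, Gbp5, an interferon-inducible GTPase, had 8.19 ± 4.62 CPM in P200-CTR-PBS and 147 ± 86.4 CPM in P200-CTR-LPS. Its log2 fold change was 4.16 (SE 0.63) in CTR and 4.59 (SE 0.71) in ELS. Mefv, which encodes the sensor pyrin, had 3 counts in 1 of 7 CTR-PBS mice and 445 counts over all 7 CTR-LPS mice, a ratio per depth of 157 (exact 95% interval for counting error 53 to 764.5). In ELS-PBS it had 0 counts, and the LPS level was at least 147-fold higher than 3 counts over that group would give. Mefv was also among the genes called higher with age in CTR, but those are the same 3 counts against 0 at P9 and no fold is given. Txnip, which binds thioredoxin and NLRP3, rose with age by 1.23 (SE 0.14) in CTR and 0.84 (SE 0.14) in ELS. It fell with LPS, with values of -0.66 (SE 0.16, edgeR adjusted p 0.00228) in CTR and -0.57 (SE 0.18, adjusted p 0.0303) in ELS, and the ELS call was lost without any of 5 mice (P200_2.1_ELS_PBS, P200_4.1_ELS_PBS, P200_11.2_ELS_LPS, P200_17.3_ELS_LPS or P200_20.1_ELS_LPS, with log2 values from -0.56 to -0.47). The NLRP3 partner Nek7 had group means between 122 and 174 CPM and the ATP receptor P2rx7 between 245 and 315 CPM, and neither was called with LPS or age. Casp12, a caspase related to Casp4, rose with age by 2.52 (SE 0.69) in CTR and 2.13 (SE 0.69) in ELS, and the ELS value was 1.65 with an adjusted p of 0.0671 without P200_20.2_ELS_PBS. The necroptosis kinase Ripk3 fell with age, with values of -2.0 (SE 0.34) in CTR and -1.78 (SE 0.36) in ELS.

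Genes whose pattern was most like that of Il1b over the 25 P200 mice were Mt2 (Pearson r of log2 CPM 0.968), Prr5l (0.965), C030005K06Rik (0.963), Mob3c (0.961) and Rrad (0.959), out of 10974 genes. For Il1rn they were Ehd1 (0.97), Tnfaip8l1 (0.968), C5ar1 (0.967), Gm11110 (0.966) and Gpr84 (0.965). These mice share the step from PBS to LPS, so the values describe the common LPS pattern and carry no test. On the same measure Il1b had an r of 0.93 with Il1a, 0.92 with Il1rn, 0.82 with Casp4 and 0.62 with Nlrp3, but 0.03 with Casp1 and -0.46 with Pycard.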

How the data were processed

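RNA of sorted microglia from 50 mice was sequenced. The authors trimmed reads with cutadapt 2.10, aligned them with STAR to GRCm39 and counted reads per gene with HTSeq 0.11.0, so the deposited values are raw counts per gene. The annotation release and strand setting are not given in the sources used here. Groups followed the labels, and the number before the point of a mouse label was taken as the nest. TMM scaling in edgeR 4.0.16 (R 4.3.3) was used, genes were kept from 1 CPM in at least 3 mice, means of the 6 groups were fitted to all mice, and contrasts were tested with the quasi-likelihood test and Benjamini-Hochberg adjustment over 16696 genes. Called means an adjusted p under 0.05. SE is the log2 fold change divided by the root of the F statistic. CPM used TMM, and log2 CPM a prior count of 2. Levels per kilobase used the merged length of all annotated exons of a gene in GENCODE (GRCm39). Intervals and floors (3 counts) cover counting error only. Simulated counts with 200 changed genes (log2 fold 2, LPS against PBS in CTR, 16284 genes tested) gave 67.5% recovery with 9 false calls. Alternatives used the likelihood-ratio test, DESeq2 1.42.0, its size factors in edgeR, other filters, fewer groups, limma 3.58.1, a nest block and left-out mice. The 10 genes, the lists and the tests were chosen with earlier results of these data known. Named pathway genes are the 3 largest called changes each way with LPS and with age in CTR, and 8 chosen in any case.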

Additional observations from a re-analysis of the deposited data

Results flagged for a closer look

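Among the 40 pairs of gene and P200 group, 3 held a mouse whose gap to the nearest other mouse took an unusually large share of the group's range, by Dixon's 95% critical value. Chance alone gives about 1 in 20 such groups. All 3 were in P200-CTR-PBS (n = 7). P200_1.1_CTR_PBS, which had 12854 detected genes, was low for Il1a, at 102.0 CPM beside 147 to 181 CPM in the others. The same mouse was high for Casp4, at 43.8 CPM beside 6.41 to 15.0 CPM. P200_5.2_CTR_PBS was high for Il1rn, at 1.13 CPM (29 counts) beside 0.0 to 0.0397 CPM.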

How the results depend on the processing

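Over 679 values of single genes under alternatives other than leaving out 1 mouse, 656 kept their direction and their side of the threshold, 12 lost the call, 5 gained it and 6 changed sign. Il1a, Il1b, Il1rn and Casp4 were called with LPS in both conditions under every alternative run. With the nest number as a replicate block the genes called with LPS were 4 in CTR and 5 in ELS, because Nlrp3 was lost in both (0.85, adjusted p 0.145, and 0.81, adjusted p 0.187). Deviations of the PBS and the LPS mice of 1 nest, over all tested genes, correlated by -0.0411 to 0.0841, and 4 of 10 nests correlated best with themselves. The consensus correlation of mice of a nest in limma was 0.0778. Such values over all genes do not decide whether the nest matters for a single gene such as Nlrp3. Nlrp3 in ELS was also lost with only the compared groups (adjusted p 0.0747) and limma voom (0.103), and Aim2 in ELS without a filter (0.0546). When an absolute log2 fold change above 1 was also required, the age calls in CTR numbered 3 of the 10 genes and 10 pathway genes, and 11 pathway genes in ELS. With limma voom and the nest as random effect, 2 genes were called with age in ELS. Without the 3 libraries with few genes, Il1b was called with age in CTR (1.44, adjusted p 0.0235) and Il18 in ELS (0.51, adjusted p 0.00201).

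Signs changed for values near 0. Il18 with LPS in CTR was -0.01 without the 3 libraries. Aim2 with age in ELS was 0.01 with filterByExpr, 0.01 with limma voom and 0.06 without the 3 libraries. With limma voom Il1a in ELS against CTR after LPS was -0.18, and the ELS by age interaction of Il1b was 0.15. Leaving out 1 mouse gave 5 to 5 genes called with LPS in CTR, 4 to 6 in ELS, 5 to 6 with age in CTR, 3 to 5 in ELS and 0 to 0 in the other contrasts. Across these fits values changed sign for Il18 with LPS in CTR (-0.05 to 0.09, where 6 fits changed sign, with -0.05, -0.05, -0.02, -0.01 and 2 values that rounded to 0.0), and with age in ELS for Pycard (-0.03 to 0.2) and Aim2 (-0.11 to 0.04, with 0.01, 0.03 and 0.04 in the fits of changed sign). For ELS against CTR they did so for Il1a at P9 (-0.1 to 0.02) and in LPS (-0.23 to 0.33, with -0.23, -0.09 and -0.05 in the fits of changed sign), Il1b at P9 (-0.32 to 0.01) and in LPS (-0.03 to 0.6) and Casp4 in LPS (-0.25 to 0.06), and for the ELS by age interaction of Il1b (-0.82 to 0.13). The cause was not tested. Counts near 0 in PBS limit the precision of the fold changes of Il1b and Il1rn.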
